A study of Mus musculus with 8 samples.

Results

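The genes described here are Yap1, Wwtr1 (which encodes Taz), the 4 Tead genes and 4 genes known to respond to them, Ankrd1, Amotl2, Lats2 and Ajuba. These 10 genes were taken by their symbols from a table of 18605 genes, and all 10 had enough reads to be among the 13470 genes tested. They were measured by RNA-seq in C3H10T1/2 cells, a mesenchymal cell line derived from mouse embryos of the C3H strain. Cells carried a lentiviral non-target control (NC) or a lentiviral short hairpin RNA directed at Nap1l2, which encodes a nucleosome assembly protein (KD-Nap1l2). Both kinds of cells were sampled without induction and on day 7 of culture in osteogenic medium, which contained dexamethasone, ascorbic acid and β-glycerol phosphate and is used to turn such cells towards bone-forming cells (NC-7d and KD-Nap1l2-7d). Each of the 4 groups had 2 libraries. Nothing in the labels says that these came from separate cultures or infections, so the p-values measure only the spread between the libraries, which may be technical. The comparisons ask how induction changes the pathway's genes in either kind of cell, and how the hairpin changes them before and after induction. Induction here means the medium together with 7 days of culture, since no library came from cells kept 7 days without the medium. The parts of the medium and of the time in culture cannot be told apart.

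Yap and Taz are coactivators without a DNA-binding domain of their own. When the kinases of the Hippo pathway, Mst1/2 and Lats1/2, are active, they phosphorylate Yap and Taz, which are then held in the cytoplasm or degraded. When the kinases are quiet, for example in spread cells on a stiff surface, Yap and Taz enter the nucleus and bind the Tead transcription factors, which recognise the DNA word GGAATG. In mesenchymal cells this pathway is known for its part in the response to stiffness and in the choice between the bone and fat lineages. Its activity is set mainly by phosphorylation and localisation of proteins, which RNA levels do not measure.

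The libraries summed to between 17420284 and 19427359 estimated counts, and a count of 0 allows a level of up to 0.154 to 0.176 CPM (counts per library size, scaled by the TMM method), counting error only. Nap1l2 itself was nearly absent. Its counts were 3 and 3 for NC, 2 and 7 for KD-Nap1l2, 15 and 5 for NC-7d and 7 and 13 for KD-Nap1l2-7d, so that a loss of its RNA was not detectable at this depth and the gene does not check the labels. The mesenchymal genes fixed as markers (Col1a1, Col1a2, Thy1, Prrx1, Vim, Pdgfra and Pdgfrb) summed to 9440 to 22800 CPM per library. Thy1 among them was low, with group means of 2.98 CPM in NC, 8.46 in KD-Nap1l2, 1.06 in NC-7d and 3.34 in KD-Nap1l2-7d. Of the markers of other cells, those of epithelium, blood, endothelium and muscle summed to at most 11.5 CPM per library in each list. The adipocyte list summed to between 5.33 and 15.9 CPM before induction and to between 82.6 and 112 CPM after it, nearly all of it Fabp4, a fatty acid carrier. In bulk RNA, fewer cells of a type and less RNA per cell cannot be told apart.

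The word that Tead proteins bind was searched for in the promoters, since 8 of the 10 genes have a RefSeq window (GRCm38.p6) of 250 bases before to 50 bases after a start site. GGAATG, read on either strand (its complement is CATTCC), was in a window of 7 of these 8 genes, Yap1, Wwtr1, Tead3, Ankrd1, Amotl2, Lats2 and Ajuba, and not in that of Tead2. Over all 27025 genes with a window, 16.6% had it. A gene counted if any of its windows held the word, so that a gene with several start sites had more occasions for a match. Of all 32851 windows, 14.7% had the word. Counting only the 250 bases before the start, 6 of the 8 genes and 14.4% of all genes had it. The Lats2 match, at chr14:57746114-57746119, lay just after a start site inside the annotated gene and within an annotated exon. Tead1 and Tead4 had no window. The stretches below show the word, in capitals, in the 4 genes whose match before the most upstream start lies outside annotated exons. The other letters are the flanking bases, and each line runs 5′ to 3′ on the strand of the gene. The Yap1 stretch is chr9:8004712-8004757 on the minus strand with the word 141 bases before the start, and the Wwtr1 stretch is chr3:57576021-57576066 on the minus strand with the word 136 bases before the most upstream start. The Tead3 stretch is chr17:28350962-28351007 on the minus strand with the word 182 bases before the most upstream start. Tead3 also had the word at 123 and 114 bases before another start and just after that start, within annotated exons. In Ajuba, chr14:54577800-54577867 on the minus strand, the word occurs at 186 and at 164 bases before the start.
Yap1: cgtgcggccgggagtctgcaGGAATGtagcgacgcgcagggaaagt
Wwtr1: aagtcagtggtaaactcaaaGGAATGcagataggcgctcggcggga
Tead3: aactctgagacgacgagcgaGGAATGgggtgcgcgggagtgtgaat
Ajuba: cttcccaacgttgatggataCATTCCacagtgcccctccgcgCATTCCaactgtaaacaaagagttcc
Ankrd1 had the word at 210 and 123 bases before its start and Amotl2 at 65 bases before its start, in both genes within an exon annotated to another transcript. A match is a description of the letters and was not measured as a binding site here.

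Per unit of length, Amotl2 was the most abundant of the 10 RNAs and Yap1 and Wwtr1 came next in all 4 groups, by the mean FPKM, a level per transcript length and library depth. In NC-7d, libraries of Amotl2 and Yap1 overlapped, as did those of Wwtr1 and Tead1. In KD-Nap1l2, those of Yap1 and Wwtr1 overlapped. In NC, Amotl2 had 46.2 ± 2.41 FPKM (SD, n = 2), Yap1 33.5 ± 0.651 and Wwtr1 28.1 ± 3.57. Tead1, Ankrd1 and Tead3 followed with 19.7 ± 0.205, 18.9 ± 4.41 and 17.1 ± 1.95 FPKM, and neighbours among these overlapped between libraries. Lats2, Ajuba and Tead2 had 10.4 ± 0.113, 7.99 ± 0.735 and 7.64 ± 1.24 FPKM, the last pair overlapping. Tead4 was at the bottom of the order with 1.32 ± 0.820 FPKM. After 7 days of induction, Tead2 and Tead4 stood at 19.0 ± 0.170 and 16.3 ± 3.25 FPKM in NC-7d and at 14.2 ± 0.849 and 14.5 ± 2.82 FPKM in KD-Nap1l2-7d, above Lats2 and Ajuba in both groups and among or near Tead3 and Ankrd1.

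Yap1 and Wwtr1, the coactivators, changed little. Yap1 (chr9:7931999-8004596, GRCm38, minus strand) had 140 and 141 CPM in NC, 169 and 152 in NC-7d, 160 and 146 in KD-Nap1l2 and 156 and 156 in KD-Nap1l2-7d. The highest library was 1.21-fold above the lowest, and the NC libraries were the lowest. Its log2 fold change with induction was 0.20 ± 0.12 (SE) in NC and 0.03 ± 0.12 in KD-Nap1l2, with adjusted p-values of 0.35 and 0.886 from edgeR's quasi-likelihood test. Wwtr1 (chr3:57455649-57575910, minus strand) had 148 and 122 CPM in NC, 153 and 119 in NC-7d, 156 and 176 in KD-Nap1l2 and 162 and 143 in KD-Nap1l2-7d. NC and NC-7d overlapped, and the replicates within them differed more than the groups did. The log2 fold changes of Wwtr1 with induction were 0.01 ± 0.17 in NC and -0.13 ± 0.17 in KD-Nap1l2 (edgeR adjusted p = 0.978 and 0.652). The FPKM of Yap1 was 0.951 to 1.47 times that of Wwtr1 over the 8 libraries.

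**Figure D1:**
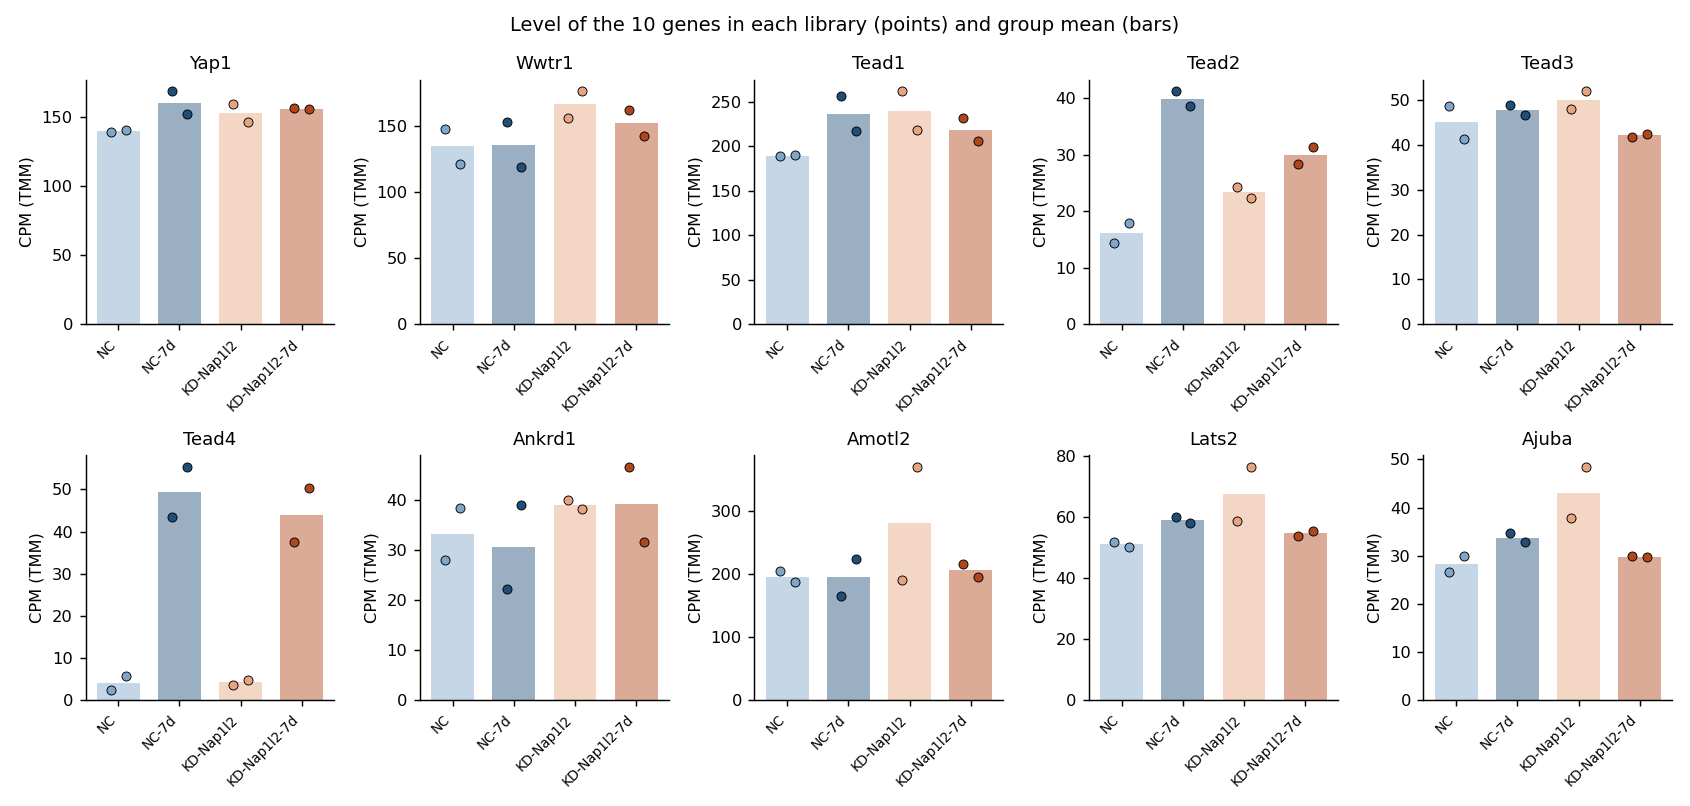
Level of each of the 10 genes in CPM (TMM-scaled, vertical axes from 0), with a point for each library and a bar for the mean of the 2 libraries of a group. Tead4 stands at 2.27 to 5.69 CPM in the 4 libraries before induction and at 37.6 to 55.3 CPM in the 4 libraries after it, while Yap1 stays between 140 and 169 CPM in all 8.

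Among the Tead genes, which encode the DNA-binding partners, Tead4 rose in both kinds of cells and Tead2 rose in NC. Tead4 (chr6:128224288-128300823, minus strand) had 2.27 and 5.69 CPM in NC and 43.5 and 55.3 CPM in NC-7d. It had 3.65 and 4.79 CPM in KD-Nap1l2 and 37.6 and 50.3 CPM in KD-Nap1l2-7d. The libraries before and after induction lay far apart in both kinds of cells, with 42 to 111 estimated counts before induction and 684 to 1053 after it. The rise was 12.4-fold in NC (log2 fold change 3.63 ± 0.39, edgeR adjusted p = 0.00264) and 10.4-fold in KD-Nap1l2 (3.38 ± 0.38, edgeR adjusted p = 0.00236). The difference between these changes was -0.25 ± 0.52 on the log2 scale, KD-Nap1l2 minus NC (edgeR adjusted p = 0.941). Tead4 remained called in both kinds of cells under each alternative run, leaving out each library included. The size of the rise in NC depends on the low NC counts, its log2 fold change being 3.12 without NC replicate 1 and 4.44 without NC replicate 2, while in KD-Nap1l2 it stayed between 3.15 and 3.59. Fabp4 rose over the same comparisons, by 4.09 ± 0.40 on the log2 scale in NC and by 3.12 ± 0.37 in KD-Nap1l2 (edgeR adjusted p = 0.00192 and 0.00298), and its part in the values of Tead4 was not tested.

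Tead2 (chr7:45215753-45233644, plus strand) had 14.4 and 18.0 CPM in NC and 41.2 and 38.6 CPM in NC-7d. In KD-Nap1l2 it had 24.4 and 22.4 CPM, and in KD-Nap1l2-7d 28.4 and 31.4 CPM. The groups before and after induction did not overlap in either kind of cell, and the KD-Nap1l2 libraries lay between the NC and NC-7d libraries at both times. In NC the rise was 2.46-fold (log2 fold change 1.30 ± 0.15, edgeR adjusted p = 0.00366) and held under each alternative run. In KD-Nap1l2 the log2 fold change was 0.35 ± 0.15 (edgeR adjusted p = 0.15), which did not pass the test. The difference between the changes was -0.95 ± 0.21 (unadjusted p = 0.00215 and adjusted p = 0.439, edgeR), so that a smaller change of Tead2 in KD-Nap1l2 was not shown after adjustment over all genes. Over the alternatives the adjusted p of this difference ran from 0.1 to 1.

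Tead1 and Tead3 were not called in either induction. Tead1 (chr7:112679318-112906807, plus strand) had 189 and 190 CPM in NC, 256 and 218 in NC-7d, 262 and 218 in KD-Nap1l2 and 232 and 206 in KD-Nap1l2-7d. NC was the lowest group, and the other 3 groups overlapped. Its log2 fold change with induction was 0.32 ± 0.15 in NC and -0.13 ± 0.15 in KD-Nap1l2 (edgeR adjusted p = 0.233 and 0.584). Tead3 (chr17:28331671-28350817, minus strand) had 48.6 and 41.4 CPM in NC, 48.8 and 46.6 in NC-7d, 48.0 and 51.9 in KD-Nap1l2 and 41.7 and 42.5 in KD-Nap1l2-7d. It spanned the narrowest range of the 4 Tead genes, with log2 fold changes with induction of 0.08 ± 0.12 in NC and -0.25 ± 0.12 in KD-Nap1l2 (edgeR adjusted p = 0.721 and 0.213).

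The makeup of the Tead family RNA shifted with these changes. The FPKM of the 4 Tead genes summed to 45.6 and 46.0 in NC and to 77.3 and 79.2 in NC-7d. In the cells with the hairpin, the sum was 61.5 and 52.4 in KD-Nap1l2 and 66.2 and 69.0 in KD-Nap1l2-7d. Both sums after induction lay above both sums before it in each kind of cell. Tead4 made up 1.62% and 4.13% of the sum in NC and 2.08% and 2.86% in KD-Nap1l2. After induction it made up 18.1% and 23.5% in NC-7d and 18.8% and 23.9% in KD-Nap1l2-7d. Tead1 held 41.7% to 46.7% before induction and 29.4% to 36.7% after it, and Tead3 held 31.6% to 40.6% before and 23.2% to 24.0% after. The shares thus became more even, Tead1 keeping the largest share in each of the 8 libraries.

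**Figure D2:**
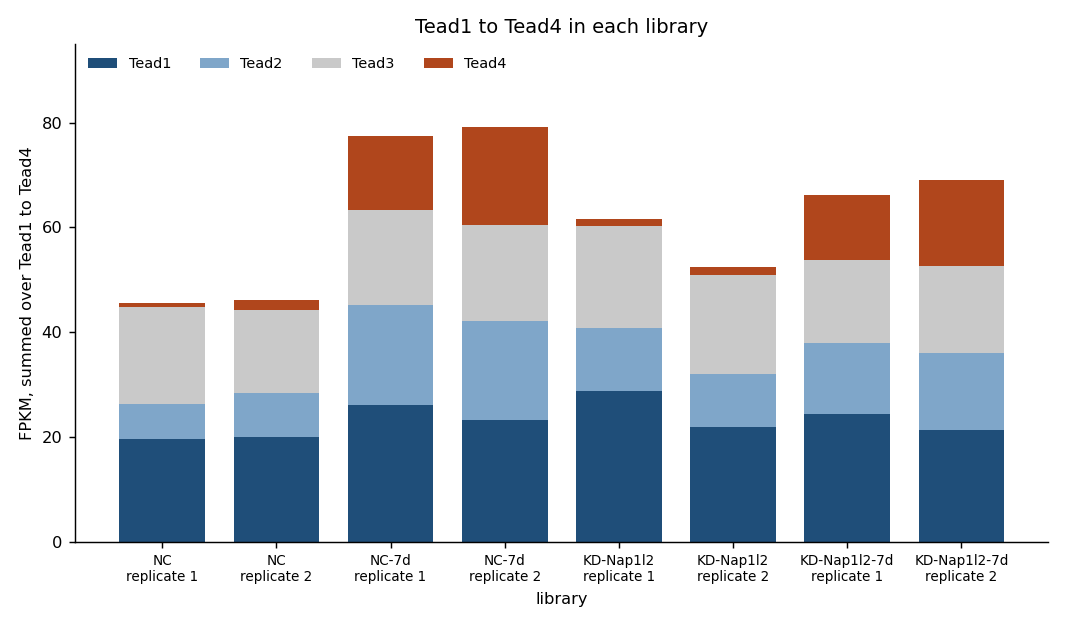
FPKM of Tead1, Tead2, Tead3 and Tead4 stacked for each of the 8 libraries (vertical axis in FPKM from 0). The Tead4 segment is a thin cap of 0.74 to 1.90 FPKM in the 4 libraries before induction and 12.5 to 18.6 FPKM in the 4 libraries after it.

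The deposited transcript values place the rise of Tead4 on both of its listed RefSeq transcripts. The transcript NM_011567.2 had 0.41 and 0.78 FPKM in NC, 7.88 and 11.9 in NC-7d, 0.43 and 0.95 in KD-Nap1l2 and 6.48 and 9.52 in KD-Nap1l2-7d. The transcript NM_001080979.1 had 0.33 and 1.11 FPKM in NC, 6.15 and 6.67 in NC-7d, 0.85 and 0.55 in KD-Nap1l2 and 5.98 and 6.93 in KD-Nap1l2-7d. The share of NM_011567.2 in the estimated counts of the gene was 34.5% to 64.2% before induction and 53.1% to 65.1% after it, and these ranges overlap. Both transcripts thus rose in level by their values, which were not tested. In the annotation, NM_011567.2 holds a wholly coding exon of 129 bases that NM_001080979.1 lacks, exon 5 of 12, at chr6:128247960-128248088 (GENCODE vM21, GRCm38, minus strand). Its last exon is also longer, 1337 against 299 bases, so that the split of reads between the transcripts does not rest on the coding exon alone. The exon is shown because it is the coding sequence by which the transcripts differ.
Tead4 exon: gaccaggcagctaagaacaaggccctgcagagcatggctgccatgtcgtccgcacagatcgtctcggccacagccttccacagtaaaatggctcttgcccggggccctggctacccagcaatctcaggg
The length is a multiple of 3 bases, so that its inclusion keeps the reading frame.

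Yap1 also had 2 leading transcripts, of 4171 and 4115 bases in the annotation. The longer one holds an exon of 48 bases that the other lacks, which is wholly coding and keeps the frame, exon 6 of 9, at chr9:7950492-7950539 (minus strand). It is shown because it is the whole exon by which they differ.
Yap1 exon: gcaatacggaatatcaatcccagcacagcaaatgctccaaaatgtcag
The transcript with the exon, NM_001171147.1, held 53.4% and 65.8% of the estimated counts of the gene in NC and 60.1% and 58.8% in NC-7d. It held 51.0% and 56.5% in KD-Nap1l2 and 64.4% and 58.1% in KD-Nap1l2-7d. The replicates of NC differed by more than the means of any pair of groups, so that no shift between the forms stands out from the spread. The transcript without it, NM_009534.3, held 27.3% to 44.6% over the 8 libraries. Ankrd1 and Ajuba are each listed with 1 transcript. The counts of Wwtr1, Tead1, Tead3, Tead4 and Ajuba were not whole in every library, which shows that some of their reads were shared out between features, and those of the other 5 genes were whole.

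The remaining 4 genes respond to Yap, Taz and Tead in many cells, and some feed back on them. In the main edgeR fit of all 8 libraries, none of Ankrd1, Amotl2, Lats2 and Ajuba was called in any comparison. DESeq2, and edgeR with at least 10 counts required in every library, called Ajuba lower with induction in KD-Nap1l2. Ankrd1 (chr19:36111961-36120099, minus strand), an ankyrin repeat protein and common readout of the pathway, had 28.0 and 38.5 CPM in NC, 22.2 and 39.1 in NC-7d, 40.0 and 38.3 in KD-Nap1l2 and 46.7 and 31.7 in KD-Nap1l2-7d. All groups overlapped NC-7d or NC, and the spread within a group reached 1.76-fold. Its log2 fold change with induction was -0.12 ± 0.29 in NC and 0.0015 ± 0.29 in KD-Nap1l2 (edgeR adjusted p = 0.849 and 0.998).

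Amotl2 (chr9:102716672-102733418, plus strand) encodes an angiomotin family protein that binds Yap at cell junctions. It had 205 and 187 CPM in NC, 165 and 225 in NC-7d, 191 and 371 in KD-Nap1l2 and 216 and 196 in KD-Nap1l2-7d. One library, KD-Nap1l2 replicate 2, stood above the other 7, which lay between 165 and 225 CPM. The log2 fold change of Amotl2 was -0.01 ± 0.29 with induction in NC and -0.45 ± 0.29 in KD-Nap1l2 (edgeR adjusted p = 0.991 and 0.329).

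Lats2 (chr14:57689662-57758388, minus strand), a kinase that phosphorylates Yap and Taz, had 52.0 and 50.3 CPM in NC, 60.2 and 58.0 in NC-7d, 58.8 and 76.5 in KD-Nap1l2 and 54.0 and 55.3 in KD-Nap1l2-7d. Ajuba (chr14:54567472-54577558, minus strand), a LIM protein that binds and restrains the Lats kinases, had 26.6 and 29.9 CPM in NC, 34.7 and 32.8 in NC-7d, 37.8 and 48.4 in KD-Nap1l2 and 29.9 and 29.7 in KD-Nap1l2-7d. In both genes, the libraries after induction lay above those before it in NC and below them in KD-Nap1l2, without overlap. Over all genes, 29.4% lay above in NC and 30.6% below in KD-Nap1l2, and the share with both was not counted. The log2 fold changes with induction were 0.21 ± 0.14 in NC and -0.31 ± 0.14 in KD-Nap1l2 for Lats2 (edgeR adjusted p = 0.414 and 0.184), and 0.26 ± 0.15 and -0.53 ± 0.15 for Ajuba (edgeR adjusted p = 0.335 and 0.0526). The difference between the changes was -0.51 ± 0.20 for Lats2 and -0.79 ± 0.21 for Ajuba, with unadjusted p-values of 0.034 and 0.00602 and adjusted p-values of 0.681 and 0.511 from edgeR. These values depend on the KD-Nap1l2 libraries, of which replicate 2 was the higher in both genes and in Amotl2. Without replicate 2, the log2 fold changes with induction in KD-Nap1l2 were -0.10 for Lats2, -0.34 for Ajuba and 0.11 for Amotl2, none of them called (edgeR adjusted p = 0.631, 0.177 and 0.781). Without replicate 1 they were -0.48, -0.70 and -0.85, all called (edgeR adjusted p = 0.0354, 0.0191 and 0.0342), in a fit that called 15.9% of all genes. The DESeq2 call of Ajuba had an adjusted p of 0.0441.

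Counted together, edgeR called 2 of the 10 genes higher with induction in NC, against 4.83% of all genes tested. In KD-Nap1l2, 1 of the 10 was called higher, against 6.84% of all genes. It called none lower, against 3.38% and 7.36% of all genes. DESeq2 called Tead2 and Tead4 in NC, against 11.5% of all genes in either direction, and Tead4 and, lower, Ajuba in KD-Nap1l2, against 17.7%. The median log2 fold change of the 10 was 0.20 in NC and -0.13 in KD-Nap1l2, beside -0.0035 and -0.0071 for all genes tested. In NC, 8 of the 10 values were above 0, and both NC-7d libraries lay above both NC libraries for 6 of the 10, Yap1, Tead1, Tead2, Tead4, Lats2 and Ajuba, against 29.4% of all genes. In KD-Nap1l2, 4 of the 10 values were above 0. Both induced libraries lay above both others for 2 of the 10, Tead2 and Tead4, against 4149 of the 13470 genes tested. They lay below both others for 3 of the 10, Tead3, Lats2 and Ajuba, which is near the 30.6% of all genes. These inductions share no library with each other.

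**Figure D3:**
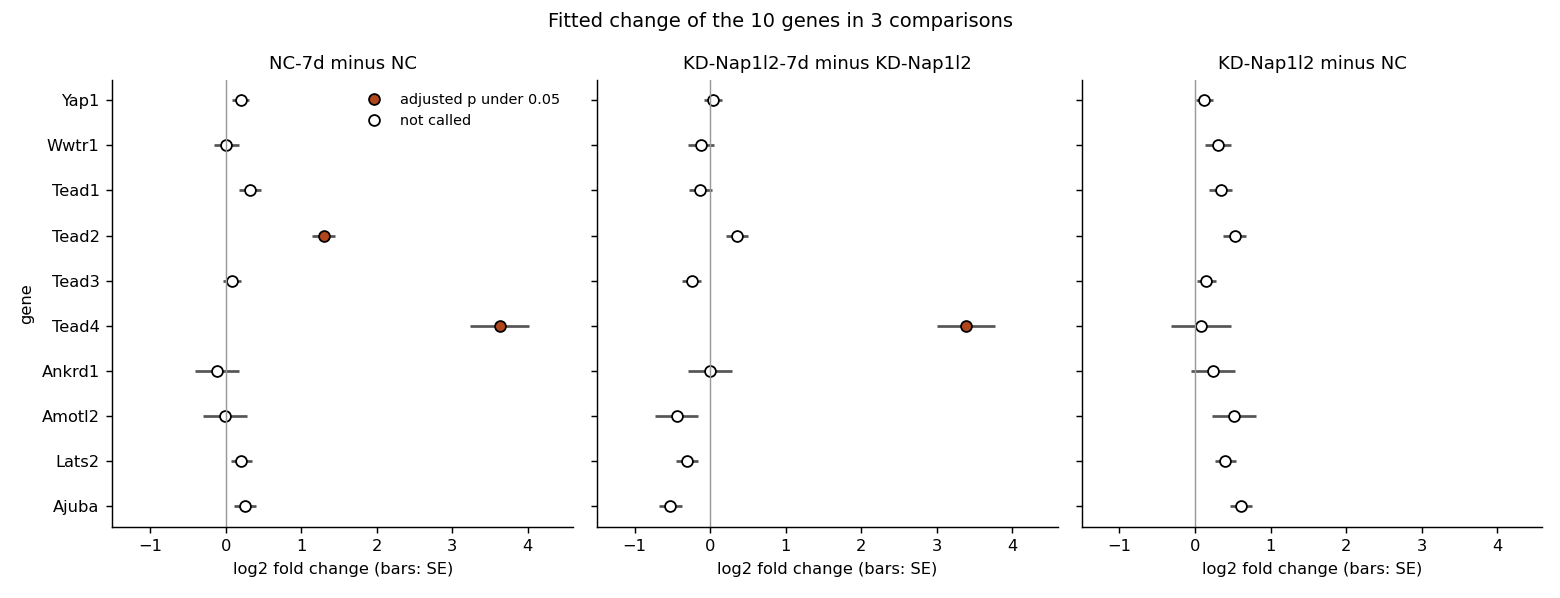
Fitted log2 fold changes of the 10 genes (horizontal axes, bars are standard errors) with induction in NC, with induction in KD-Nap1l2, and between KD-Nap1l2 and NC before induction, with filled points for adjusted p-values under 0.05. Tead4 lies at 3.63 and 3.38 in the inductions, Tead2 at 1.30 and 0.35, and the 10 points of the third panel lie between 0.08 and 0.61, none of them called.

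Before induction, none of the 10 genes was called between KD-Nap1l2 and NC by edgeR's quasi-likelihood test, against 0.0817% of all genes. The unadjusted p-value of 3 of the 10 was under 0.05, as was that of 1852 of the 13470 genes tested. DESeq2 called none of the 10 and 460 of all genes (3.41%). All 10 fitted log2 fold changes were above 0, from 0.08 ± 0.40 for Tead4 to 0.61 ± 0.15 for Ajuba, with a median of 0.32 beside 0.0106 for all genes. Both KD-Nap1l2 libraries lay above both NC libraries for 6 of the 10, Yap1, Wwtr1, Tead1, Tead2, Lats2 and Ajuba, against 22% of all genes tested. The largest values after Ajuba were those of Tead2, 0.53 ± 0.15, and Amotl2, 0.52 ± 0.29 (edgeR adjusted p = 0.151, 0.19 and 0.481 for Ajuba, Tead2 and Amotl2). Lats2, Tead1 and Wwtr1 had 0.40 ± 0.14, 0.34 ± 0.15 and 0.30 ± 0.17, and Ankrd1, Tead3 and Yap1 had 0.24 ± 0.29, 0.15 ± 0.12 and 0.13 ± 0.12. Without KD-Nap1l2 replicate 1, Ajuba and Lats2 were called higher in KD-Nap1l2 (edgeR adjusted p = 0.0351 and 0.0468), in a fit that called 4.06% of all genes. Without replicate 2, they had 0.42 and 0.20 and were not called (edgeR adjusted p = 0.391 and 0.636), and Amotl2 had -0.03. The 10 cell cycle genes fixed as a list were likewise all above 0 in this comparison, with a median of 0.33 and none called, 0 of them at an unadjusted p-value under 0.05, and their part in the values of the pathway's genes was not tested.

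After 7 days, again none of the 10 was called between KD-Nap1l2-7d and NC-7d, against 0% of all genes by edgeR. The unadjusted p-value of 1 of the 10 was under 0.05, as was that of 1057 of the 13470 genes tested. DESeq2 called none of the 10 and 79 of all genes. Of the 10 log2 fold changes, 7 were below 0, with a median of -0.11 beside -0.0056 for all genes. Both KD-Nap1l2-7d libraries lay below both NC-7d libraries for 4 of the 10, Tead2, Tead3, Lats2 and Ajuba, against 21% of all genes tested, and above them for none. Tead2 had the lowest, -0.42 ± 0.15 (edgeR adjusted p = 0.552), and Tead4 had -0.17 ± 0.33 (edgeR adjusted p = 0.949). Ankrd1 had the highest, 0.35 ± 0.29 (edgeR adjusted p = 0.834), with overlapping libraries. For the difference of the induction changes, none of the 10 was called, against 0% of all genes by edgeR. Without adjustment 3 were under 0.05, Tead2, Ajuba and Lats2, beside 948 of the 13470 genes tested. DESeq2 called none of the 10 and 98 of all genes.

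Upstream of Yap and Taz, 24 regulators of the Hippo pathway were fixed as a list, the kinases Stk3 and Stk4 (which encode Mst2 and Mst1) and Lats1, their adaptors, and upstream scaffolds, kinases and cadherins. All 24 were tested. With induction in NC, 3 were called higher and 0 lower, and in KD-Nap1l2, 2 were called higher and 4 lower. The shares of all genes called by edgeR were 4.83% higher and 3.38% lower in NC and 6.84% higher and 7.36% lower in KD-Nap1l2. The median log2 fold change of the list was 0.05 in NC and 0.03 in KD-Nap1l2, close to that of all genes. Map4k4, a kinase that acts on Lats alongside Mst1/2, rose from 164 and 152 CPM to 388 and 286 CPM in NC (log2 fold change 1.09 ± 0.20) and from 201 and 156 to 388 and 326 CPM in KD-Nap1l2 (1.003 ± 0.198). Limd1, a LIM protein related to Ajuba, rose by 0.66 ± 0.12 in NC and by 0.70 ± 0.12 in KD-Nap1l2. The edgeR adjusted p-values of these 4 changes lay between 0.0103 and 0.0172. Map4k4 and Limd1 were thus called in both kinds of cells.

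Sav1, the scaffold of the Mst kinases, was called only in NC, from 163 and 171 to 276 and 267 CPM (log2 fold change 0.70 ± 0.15, edgeR adjusted p = 0.0276), and whether its change differs between the kinds of cells was not shown, since no regulator was called for the difference of the induction changes. The 4 regulators called lower in KD-Nap1l2 were Frmd6, a membrane scaffold upstream of the kinases (-0.999 ± 0.218), Fat4, an atypical cadherin (-0.85 ± 0.20), Amot, an angiomotin (-0.62 ± 0.13), and Stk3 (-0.60 ± 0.12). Their edgeR adjusted p-values lay between 0.0192 and 0.0274. Frmd6 had 175 and 271 CPM in KD-Nap1l2, replicate 2 being the higher as for Amotl2, and 115 and 108 CPM in KD-Nap1l2-7d. Between KD-Nap1l2 and NC, no regulator was called at either time by edgeR or DESeq2, with 1 and 2 of the 24 at an unadjusted p-value under 0.05 by edgeR before and after induction. For the difference of the changes none was called by either tool, with 2 at that level. Of the 13470 genes tested, 1852, 1057 and 948 were at that level in these 3 comparisons. With 1 library left in a group, the calls of regulators with induction changed. Those in NC were lost when NC replicate 1, NC replicate 2 or NC-7d replicate 1 was left out. Those in KD-Nap1l2 were lost when either KD-Nap1l2-7d library was left out. Over all genes, fewer were called in the same fits too, and whether the regulators lost more than other genes was not tested.

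Of the Vgll cofactors, which compete with Yap and Taz for the Tead proteins, Vgll3 and Vgll4 were tested and neither was called by edgeR in any comparison. Vgll3 had 246 and 206 CPM in NC, 185 and 226 in NC-7d, 243 and 235 in KD-Nap1l2 and 156 and 175 in KD-Nap1l2-7d. It was lowest in KD-Nap1l2-7d, without overlap with the other groups, and its log2 fold change with induction in KD-Nap1l2 was -0.53 ± 0.15 (edgeR adjusted p = 0.0569), which DESeq2 called. Vgll4 lay between 41.6 and 66.7 CPM over the 8 libraries. Vgll2 had at most 0.102 CPM in any library and was not tested, and Vgll1 was not in the table.

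**Figure D4:**
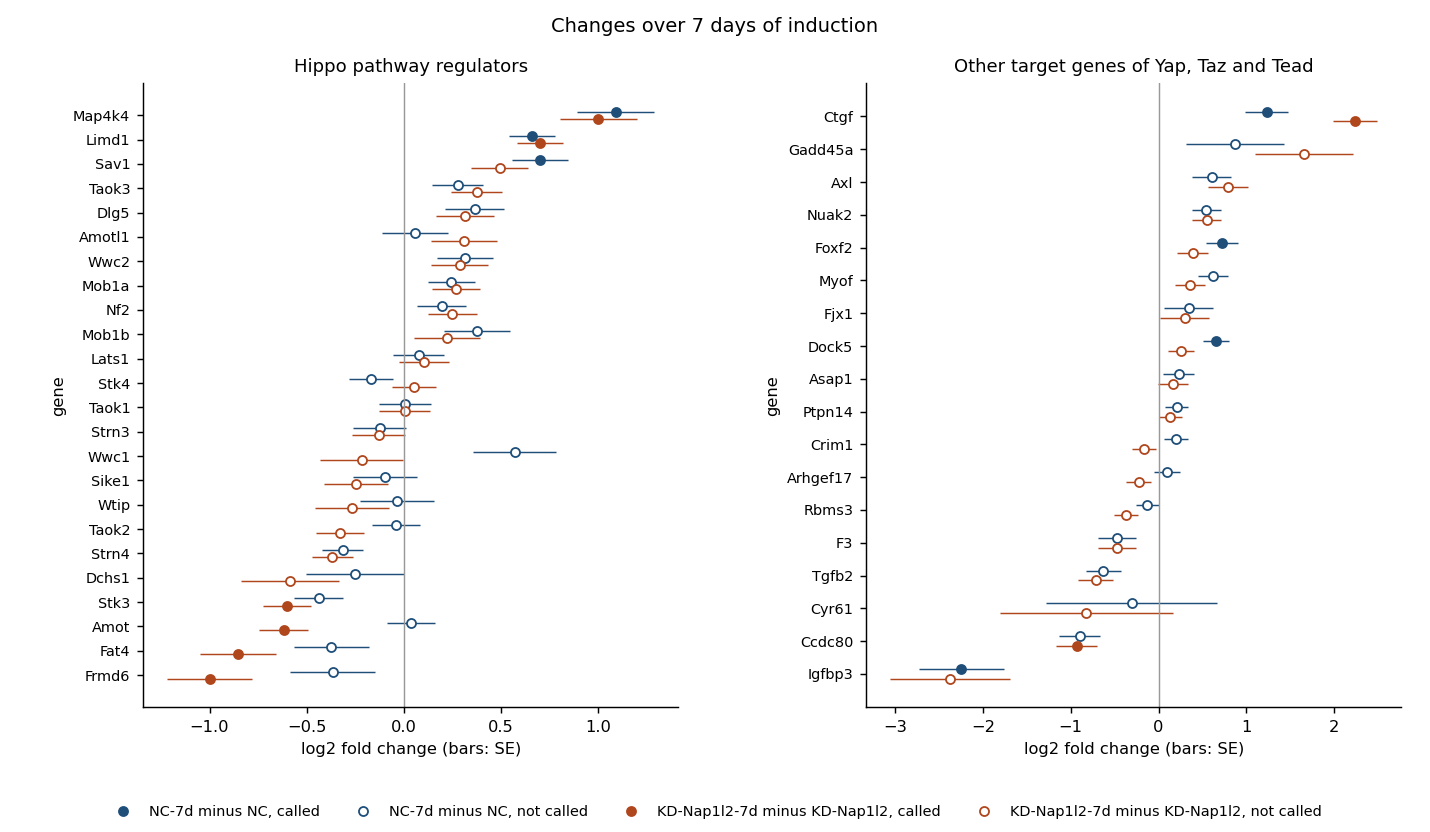
Log2 fold changes over 7 days of induction (horizontal axes, bars are standard errors) of the 24 Hippo regulators, left, and 18 other target genes, right, in NC (blue) and KD-Nap1l2 (orange), ordered by the value in KD-Nap1l2, with filled points for adjusted p-values under 0.05. Ctgf is the highest of the target genes in both kinds of cells, at 1.23 and 2.24, and Map4k4 the highest of the regulators, at 1.09 and 1.003.

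Other genes known as targets of Yap, Taz and Tead moved in both directions. Of 19 such genes fixed as a list, 18 were tested and Nt5e was too low. With induction in NC, 3 were called higher and 1 lower, and in KD-Nap1l2, 1 was called higher and 1 lower. Of all genes, 4.83% were called higher and 3.38% lower in NC and 6.84% and 7.36% in KD-Nap1l2, so that 1 of 18 in each direction is near the share of all genes. The median log2 fold change of the list was 0.22 in NC and 0.15 in KD-Nap1l2. Leaving out 1 library never raised the number of targets called in NC and lowered it in several fits. In KD-Nap1l2 it moved that number in either direction. The share of all genes called also changed in these fits. Ctgf (Ccn2), a matrix-associated growth regulator and one of the most used readouts of the pathway, had 100 and 98.5 CPM in NC and 228 and 238 in NC-7d, and 83.6 and 71.7 in KD-Nap1l2 and 467 and 265 in KD-Nap1l2-7d. The libraries after induction were above those before it in both kinds of cells. Its log2 fold change was 1.23 ± 0.24 in NC and 2.24 ± 0.25 in KD-Nap1l2 (edgeR adjusted p = 0.0233 and 0.00231). The call in NC was lost when any 1 NC or NC-7d library was left out, with log2 fold changes of 1.20 to 1.26 and adjusted p-values of up to 0.165. The difference between the changes was 1.01 ± 0.34 (edgeR adjusted p = 0.663). When replicate 1 of KD-Nap1l2-7d was left out it was 0.54, and when replicate 2 of that group was left out it was 1.35.

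Cyr61 (Ccn1), a close relative of Ctgf and another common readout, varied too much between replicates to tell whether it moved with Ctgf. Cyr61 had 414 and 204 CPM in NC, 37.5 and 462 in NC-7d, 103 and 371 in KD-Nap1l2 and 146 and 122 in KD-Nap1l2-7d. The replicates of NC-7d, which were 12.3-fold apart, spanned the values of the other 6 libraries. Its log2 fold change was -0.31 ± 0.98 in NC and -0.82 ± 0.98 in KD-Nap1l2 (edgeR adjusted p = 0.883 and 0.611). Of these readouts, the libraries highest in Cyr61 in NC-7d and KD-Nap1l2, replicate 2 of each, were also the highest in Amotl2 among their groups, while Ankrd1 was the higher in replicate 2 of NC-7d (39.1 against 22.2 CPM) but the lower in the NC library that was higher in Cyr61 (28.0 against 38.5 CPM) and about equal in the KD-Nap1l2 libraries (40.0 and 38.3 CPM). The sum of the cell cycle list was 654 CPM in NC-7d replicate 1 and 1240 in replicate 2, beside 1110 and 1320 in NC, 1550 and 1390 in KD-Nap1l2 and 756 and 777 in KD-Nap1l2-7d. NC-7d replicate 2 thus stood at the level before induction in that list. The part of these differences in the values of Cyr61, Ankrd1 and Amotl2 was not tested.

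**Figure D5:**
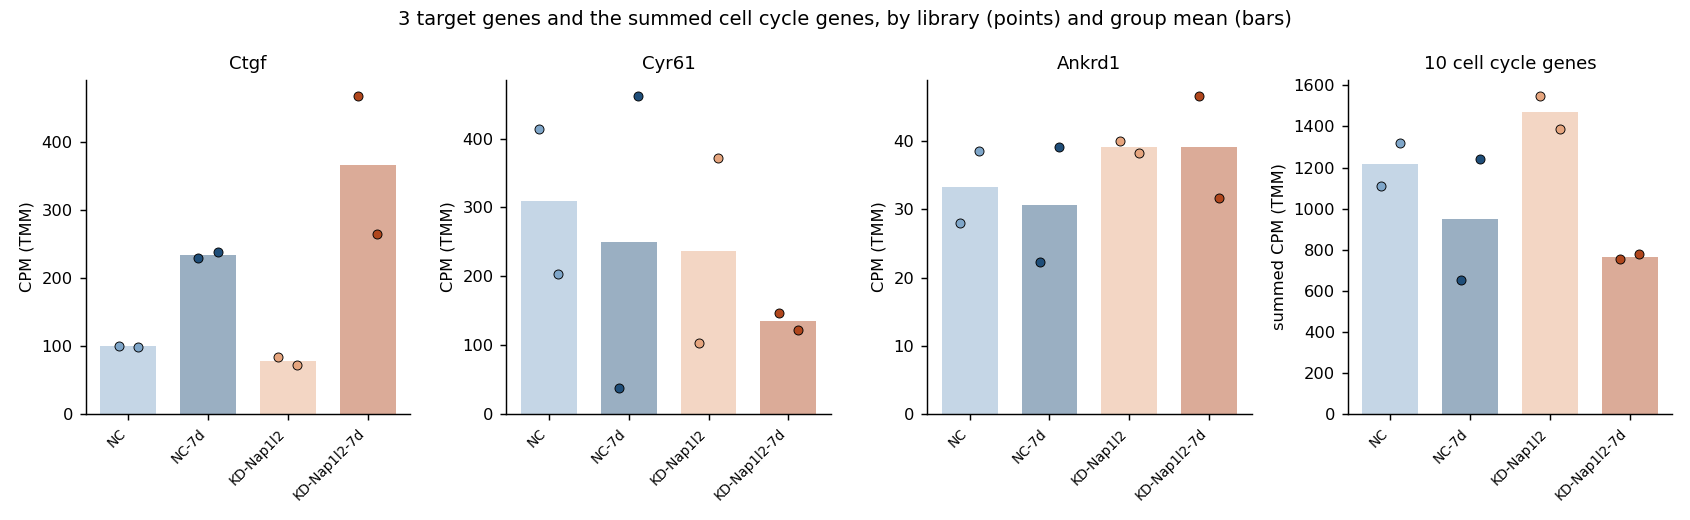
CPM of Ctgf, Cyr61 and Ankrd1 and the summed CPM of 10 cell cycle genes (vertical axes from 0), with a point for each library and a bar for the mean of the 2 libraries of a group. The NC-7d points lie at 37.5 and 462 CPM for Cyr61, at 22.2 and 39.1 CPM for Ankrd1 and at 654 and 1240 CPM for the cell cycle genes, and close together, at 228 and 238 CPM, for Ctgf.

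The other called targets were Dock5, a guanine nucleotide exchange factor (0.66 ± 0.15), and Foxf2, a forkhead transcription factor (0.72 ± 0.18), higher with induction in NC. Igfbp3, which binds insulin-like growth factors, was called lower in NC (-2.25 ± 0.48) but had only 0.110 to 2.59 CPM in the 8 libraries. Ccdc80, a secreted matrix protein, was called lower in KD-Nap1l2 (-0.93 ± 0.23), and its value in NC, from 142 and 147 to 78.5 and 77.0 CPM, was not called by edgeR. The edgeR adjusted p-values of the 4 calls lay between 0.0309 and 0.0476. Between KD-Nap1l2 and NC, no target was called at either time by edgeR, with 3 of 18 at an unadjusted p-value under 0.05 each time. None was called for the difference of the changes, with 1 of 18 at that level. Of the 13470 genes tested, 1852 and 1057 were at that level before and after induction and 948 for the difference. DESeq2 called none in these 3 comparisons either. The promoter word GGAATG was in a window of 4 of the 12 targets that had one.

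By pattern over the 8 libraries, among 11279 other genes whose normalized counts averaged 50 or more, the genes most like Yap1 by Pearson's r of log2 CPM were Mtf2 (0.962), Acaca (0.952) and Pbx3 (0.950). Those most like Wwtr1 were Med4 (0.975), Agfg1 (0.972) and Gnai3 (0.971), and those most like Ankrd1 were Gtse1 (0.906), Prkcsh (0.898) and Taf6 (0.866). The points of these correlations share their libraries and depths, and with so many genes compared over 8 libraries they are given as a description.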

How the data were processed

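RNA-seq of 8 libraries in 4 groups of 2 was used, grouped by their labels. The authors deposited an estimated count (expected count) for each gene and transcript, of which 41.1% of genes hold values that are not whole, and FPKM, scaled by the authors to length and depth. Their processing notes name BWA, Bowtie2, RSEM and GRCm38.p6, without roles or versions. The authors' tables of their own comparisons (fold changes and p-values) were not used. Counts were rounded and TMM-scaled, and 1 model of all 8 libraries was fitted with edgeR 4.0.16 (R 4.3.3), after filterByExpr had kept 13470 of 18605 genes, with the quasi-likelihood test and Benjamini-Hochberg adjustment over all of them. An adjusted p-value under 0.05 was taken as a call. A group of 2 libraries allows no exact test below 0.05. The fit was tested on simulated data.

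The 10 genes and the lists were chosen with earlier results of these data known. The genes named were these 10, Ccn1, Ccn2 and Nap1l2, in each comparison up to 4 called genes of each list with the largest rise and fall, and for Yap1, Wwtr1 and Ankrd1 the 3 genes most alike. The marker and cell cycle lists were named beside the results, and Vgll1 to Vgll4 and Nt5e were named to account for their lists. Frmd6 levels and the Vgll3, Vgll4 and Ccdc80 values outside this rule were chosen after they were seen. Promoter windows come from RefSeq (GRCm38.p6) and exons from GENCODE vM21. The fit was repeated with DESeq2 1.42.0, with RLE size factors, without the filter or with 10 counts required in every library, on the libraries compared alone, with the replicate block, with a fold of 2 required and without each library in turn. Python 3.11.15 and matplotlib 3.10.9 drew the figures.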

Additional observations from a re-analysis of the deposited data

Results flagged for a closer look

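For Lats2 and Ajuba, each library after induction lay above those before it in NC and below them in KD-Nap1l2. Neither gene was called by the main edgeR fit in either kind of cell (adjusted p = 0.414 and 0.184 for Lats2 and 0.335 and 0.0526 for Ajuba). Of all genes tested, 29.4% lay above without overlap in NC and 30.6% below in KD-Nap1l2. The share of all genes with both was not counted, so how common the reversal is remains unknown. The difference of the changes, KD-Nap1l2 minus NC, was -0.51 on the log2 scale for Lats2 and -0.79 for Ajuba. The test of this difference by edgeR gave unadjusted p-values of 0.034 and 0.00602 and did not pass after adjustment over all genes, with 0.681 and 0.511. Leaving out 1 library gave differences of -0.69 to -0.31 for Lats2 and of -0.96 to -0.60 for Ajuba. The values nearest 0 were those without KD-Nap1l2 replicate 2, which was the highest of the 8 libraries in both genes, with 76.5 CPM of Lats2 and 48.4 CPM of Ajuba.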

How the results depend on the processing

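The calls of Tead4 in both inductions and of Tead2 in NC held under DESeq2, RLE size factors, both other count filters, a fit restricted to the groups compared, the replicate block, a required fold of 2 and without each library. Calls among the 10 genes with induction in KD-Nap1l2 numbered 2 with DESeq2 and 2 with at least 10 counts in every library, Ajuba being the second, and 1 to 4 without 1 library, beside 17.7%, 14.7% and 2.2% to 16% of all genes. Between KD-Nap1l2 and NC they numbered 0 to 2 without 1 library, beside 0% to 4.06% of all genes. Of the targets, 7 were called in NC by DESeq2, 2 with at least 10 counts and 2 with only the libraries compared, beside 11.5%, 8.03% and 5.72% of all genes. In KD-Nap1l2, 4 were called by DESeq2 and 4 with no filter, beside 17.7% and 10.9%, and DESeq2 called 1 cofactor. Leaving out 1 library, chosen for these lists after the data were seen, gave 0 to 4 regulators and 0 to 4 targets in NC, and 0 to 6 regulators, 0 to 1 cofactors and 1 to 6 targets in KD-Nap1l2, and 0 to 1 regulators between KD-Nap1l2 and NC. A lone library is then assumed to vary like the other groups. With 2 libraries a group, changes near 0 turned sign. Wwtr1 in NC was at -0.00085 with at least 10 counts. Ankrd1 in KD-Nap1l2 was at -0.0035 with DESeq2, -0.0034 with RLE size factors, -0.0011 with no filter, -0.014 with at least 10 counts and -0.0012 with only the libraries compared. Without 1 library, log2 fold changes with induction in NC ran from -0.18 to 0.18 for Wwtr1, -0.025 to 0.20 for Tead3, -0.58 to 0.24 for Ankrd1, -0.25 to 0.20 for Amotl2 and -3.04 to 0.58 for Cyr61. With induction in KD-Nap1l2 they ran from -0.030 to 0.095 for Yap1, -0.26 to 0.0060 for Tead1, -0.30 to 0.25 for Ankrd1, -0.85 to 0.11 for Amotl2 and -1.47 to 0.38 for Cyr61. Between KD-Nap1l2 and NC they ran from -0.43 to 0.89 for Tead4 and -0.034 to 0.92 for Amotl2, and after 7 days from -0.40 to 0.027 for Tead4, whose difference of changes ran from -1.06 to 0.26. The cause of these moves was not tested.

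Between groups, the deviations of libraries with the same replicate number from their group means had correlations of -0.0612 to 0.104. With 2 libraries a group, such values cannot settle whether libraries with the same number shared a batch. With the replicate block, 2 of the 10 genes were called in NC, 1 in KD-Nap1l2 and 0 in the other comparisons, and over all genes 961 in NC and 1757 in KD-Nap1l2, against 1106 and 1912 without it. FPKM summed over transcripts moved no level of the 10 genes beyond the spread between replicates.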
